A study of Mus musculus with 33 samples.

Results

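SP/CD127-/lo Tregs, the splenic Foxp3+ regulatory T cells with no or little surface CD127 from mice tolerant of an islet xenograft, were compared with SP/naive Tregs of untransplanted mice across all genes. The members were the libraries that the labels give to these subsets, 3 of each, which is 6 of the 33 bulk RNA-Seq libraries of the study. Of the 31054 features counted, 25347 reached at least 1 CPM, a count scaled to a common library size, in at least 1 library and were tested.

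Tregs are CD4+ T cells that restrain other immune cells and whose identity is set by the transcription factor Foxp3. They depend on interleukin-2, which they bind through a receptor with CD25, the product of Il2ra. CD127, the product of Il7r, is the alpha chain of the interleukin-7 receptor, and most resting Tregs carry little of it. Tregs that have met antigen divide, raise receptors such as CTLA4 and ICOS and lose part of the program of resting lymphoid cells.

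All mice were DEREG mice on the C57BL/6 background, which carry a diphtheria toxin receptor fused to EGFP under the Foxp3 promoter, so that both groups held the same transgene. The tolerant mice had received 4000 islet equivalents of porcine neonatal islet cell clusters under the renal capsule. They were treated with 500 µg of the anti-CD154 antibody MR-1 on days 0, 2, 4 and 6 and with a single 500 µg dose of CTLA4-Fc on day 0, and their spleens were taken on day 100. The naive mice had neither graft nor treatment, so graft, treatment and time since transplantation could not be told apart. SP/naive Tregs were sorted on CD4 and GFP alone, while SP/CD127-/lo Tregs were also gated on CD127, and the sort therefore differed between the groups as well. Each library was a pool of several male mice. The tolerant mice came from more than 1 transplant experiment, while the naive spleens came from only as many mice as there were libraries, so that pools of a group may share mice and p-values measure only the spread between these samples.

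The 3 SP/CD127-/lo libraries held 3660330 to 4181135 read pairs on genes and the 3 SP/naive libraries 2728119 to 3840011. At this depth 3 counts, the limit that a count of 0 allows, amounted to 0.755 to 1.01 CPM in a library after TMM scaling, for counting error only. The share of read pairs that fell outside annotated genes was 13.2%, 24.9% and 25.1% in SP/CD127-/lo Tregs and 34.6%, 40.2% and 28.2% in SP/naive Tregs. The groups did not overlap in this share, with means of 21.1% ± 6.81 and 34.3% ± 5.98 (SD, n = 3 each) and an exact two-sided permutation p of 0.1, the smallest that 3 against 3 allow. SP/CD127-/lo libraries had a count for 13003 ± 724 genes and SP/naive libraries for 15045 ± 1928 (exact permutation p = 0.2). The part of these differences in the results on genes was not tested, apart from the fit given with the count of called genes.

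The cells of both groups carried the defining transcripts of Tregs. Foxp3 stood at 394, 342 and 323 CPM in SP/CD127-/lo Tregs and at 359, 468 and 353 CPM in SP/naive Tregs. Il2ra stood at 528, 390 and 609 CPM against 444, 285 and 466 CPM. EGFP, read from the transgene, was present in each of the 6 libraries, at 48.7 to 96.6 CPM and 37.2 to 86.4 CPM. The groups overlapped in all 3 transcripts, and the log2 fold changes were -0.16 ± 0.55 (SE) for Foxp3, 0.35 ± 0.51 for Il2ra and 0.36 ± 1.08 for EGFP.

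Il7r followed the gate. It was at 270, 303 and 360 CPM in SP/CD127-/lo Tregs and at 627, 581 and 422 CPM in SP/naive Tregs, so that every SP/CD127-/lo library lay below every SP/naive library. The log2 fold change was -0.81 ± 0.36 (SE), with an adjusted p of 0.779 in edgeR's quasi-likelihood test. Since CD127 was used in the sort of only 1 of the groups, this was a check of the gate and not a finding. SP/CD127hi Tregs of tolerant spleens had 1082 to 1236 CPM of Il7r.

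At a Benjamini-Hochberg adjusted p under 0.05 in edgeR's quasi-likelihood test, 18 of 25347 genes were called (0.071%), of which 7 were higher (0.0276%) and 11 lower (0.0434%) in SP/CD127-/lo Tregs. The genes called higher encode the MHC class I light chain B2m, the tetraspanin Cd53, the mitochondrial respiratory chain proteins mt-Cytb and mt-Co1, the actin-binding peptide Tmsb4x, the T cell receptor alpha constant region Trac and the surface glycoprotein Cd52. The genes called lower were the nuclear noncoding RNA Malat1, the genes Ly86, H2-Ab1, Iglv1, Iglc1, Ms4a1 and Bank1, which B cells or other antigen-presenting cells express at high levels, the chemokine receptor gene Cxcr6, the protease inhibitor gene Serpinb1a, and the predicted genes Gm10800 and Gm10801. In 12 of the 18 genes the 3 libraries of a group did not overlap those of the other, against 4.02% of all genes higher and 4.96% lower without overlap. The 18 were picked by their p in these same libraries, so this follows in part from the choice. At a mean of at least 1000 CPM, where 6 of the 7 genes called higher lie, 40.2% of all genes were higher without overlap. Without adjustment, 1383 genes (5.46%) had a p under 0.05, 515 of them higher and 868 lower.

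These calls depended on how the spread of a gene was estimated. In edgeR's likelihood ratio test, which the study's own methods name, 4 genes were called, Ly86, H2-Ab1, Cxcr6 and Serpinb1a, and Malat1 was not, with an adjusted p of 0.0872. The fit drew the spread of each gene to a trend over all genes with a weight of 234.6 prior degrees of freedom, against 22 residual degrees of freedom from the libraries. Each SE given with a log2 fold change comes from this fit and does not measure the spread between the 6 libraries alone. In edgeR's quasi-likelihood test with robust estimation of the spread, an alternative chosen after seeing the data, 0 genes passed an adjusted p of 0.05 and 1342 had an unadjusted p under 0.05. Cd53 and Trac came closest there, both with an adjusted p of 0.0738, and Malat1 had 0.358. All genes called higher had a larger SE there, such as 0.34 against 0.14 for Tmsb4x and 0.37 against 0.18 for mt-Cytb. With the share of read pairs outside genes as a covariate, also chosen after seeing the data, 2 genes were called by edgeR's quasi-likelihood test, Malat1 and H2-Ab1, both lower. This covariate moved the median of all genes from 0.00 to 0.31 and turned the sign of the medians of 13 of the 31 gene lists described here. Of these lists 23 had a median above that of all genes without it and 9 with it.

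**Figure D1:**
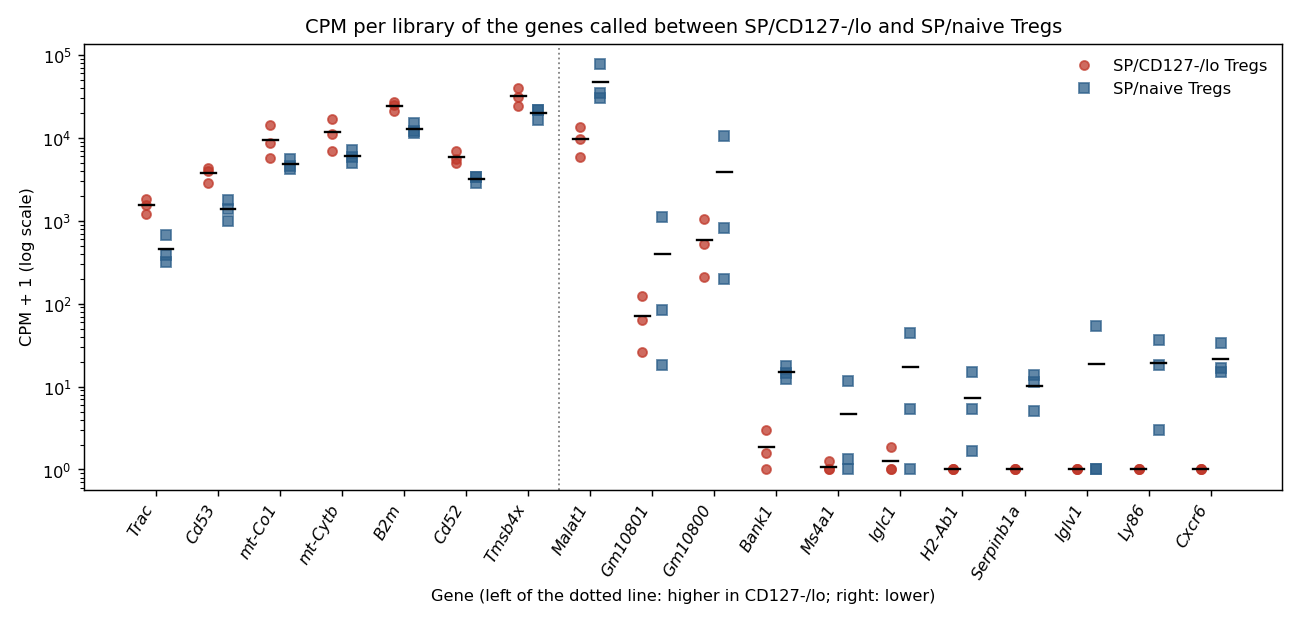
Each point is the CPM of a library plus 1 on a log axis, for the 18 called genes along the horizontal axis, with SP/CD127-/lo Tregs as red circles, SP/naive Tregs as blue squares and black bars for the mean of 3 libraries. The 7 genes left of the dotted line lie at means of 1535 to 31792 CPM in SP/CD127-/lo Tregs, while 5 genes on the right have no count in any SP/CD127-/lo library.

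Malat1 (mm10 chr19:5795690-5802672, minus strand), an abundant long noncoding RNA that stays in the nucleus, showed the smallest p of all genes. It stood at 5803, 9628 and 13397 CPM in SP/CD127-/lo Tregs and at 77263, 35034 and 30484 CPM in SP/naive Tregs. The highest SP/CD127-/lo library thus lay well below the lowest SP/naive library, although the libraries of a group differed among themselves by more than 2-fold. The means were 9609 ± 3797 and 47593 ± 25795 CPM (SD, n = 3 each), and the log2 fold change was -2.31 ± 0.15 (SE) with an adjusted p of 1.89e-32 in edgeR's quasi-likelihood test. With robust estimation of the spread the SE was 0.46. In edgeR's likelihood ratio test its adjusted p was 0.0872. In limma-trend on log2 CPM, likewise chosen after seeing the data, Malat1 had an adjusted p of 0.00363 and was 1 of 5 genes called (0.0197%).

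Malat1 was also low in other CD4+ cells of tolerant spleens. SP/CD127hi Tregs had 15553 to 23208 CPM and SP/tolerant CD4+ cells 12908 to 24820 CPM, while SP/naive CD4+ cells had 46089 to 51703 CPM. CD45+CD4- cells of tolerant spleens, at 6967 to 11823 CPM, overlapped those of naive spleens, at 7525 to 27661 CPM. Graft Tregs of the same kind of mouse, at 24011 to 45886 CPM, had 2 of 3 libraries within the range of SP/naive Tregs. In the graft-draining lymph node (DLN) the naive Tregs held 64310 to 175136 CPM and the CD127-/lo Tregs 66735 to 105854 CPM, with 3 of these 6 libraries within the range of SP/naive Tregs, as were the DLN/CD127hi Tregs at 35712 to 47794 CPM. These levels are given as a description and were not tested against each other here.

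**Figure D2:**
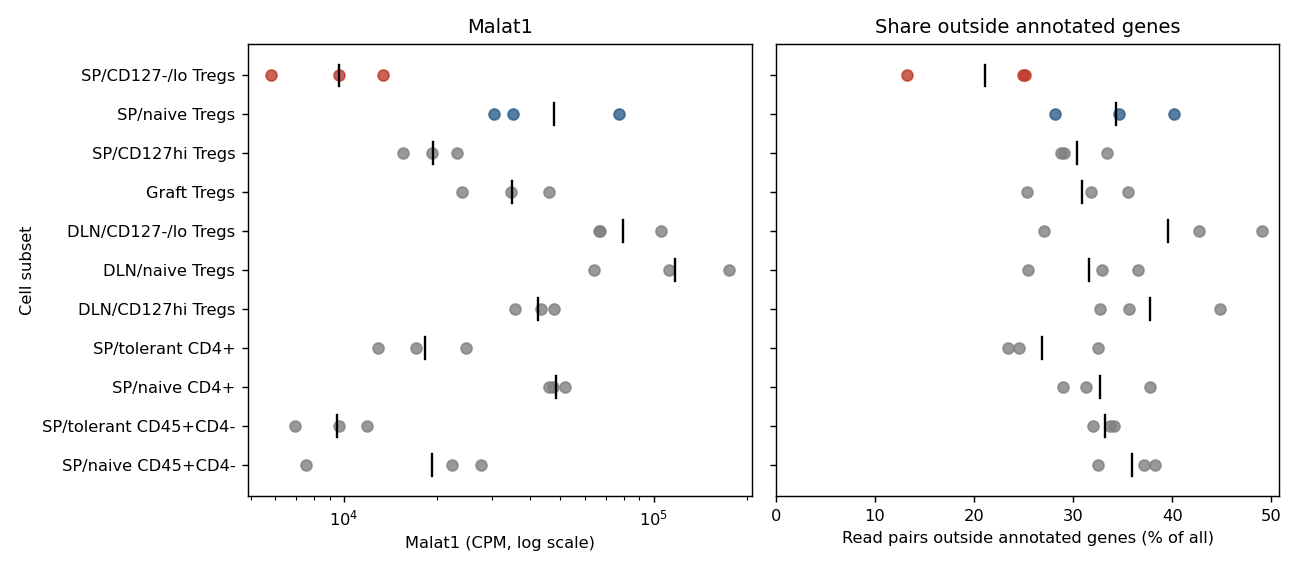
Malat1 in CPM on a log axis (left) and the percent of read pairs outside annotated genes (right) for each of the 11 subsets, with a point for each of the 3 libraries and a black bar for their mean. SP/CD127-/lo Tregs (red) hold the lowest mean share, 21.1%, and a mean Malat1 level of 9609 CPM, against 34.3% and 47593 CPM in SP/naive Tregs (blue).

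Malat1 belonged to a list of 6 nuclear long noncoding RNAs, and all 6 had a log2 fold change below 0, with a median of -1.22 against 0.00 over all genes tested, or -0.18 against 0.31 with the share of read pairs outside genes as a covariate. Malat1 was the only member called. Neat1, the scaffold of nuclear paraspeckles, was at 125, 259 and 291 CPM against 347, 666 and 308 CPM, so that its groups did not overlap. Kcnq1ot1, an imprinted antisense transcript, had means of 322 and 678 CPM and overlapping groups, and its reads cannot be told from those of the gene it overlaps, since the kit does not mark strand. Srrm2, which encodes a splicing factor of nuclear speckles and was not on the list, was at 175, 302 and 322 CPM against 721, 694 and 515 CPM. Its log2 fold change was -1.27 ± 0.38 (SE) with an adjusted p of 0.447 in edgeR's quasi-likelihood test.

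B2m, which pairs with MHC class I heavy chains at the cell surface, was at 27352, 21322 and 24784 CPM in SP/CD127-/lo Tregs and at 15016, 11377 and 12085 CPM in SP/naive Tregs. The groups were well apart, and the log2 fold change of 0.93 ± 0.15 (SE) had the smallest p among the increases, with an adjusted p of 1.12e-05 in edgeR's quasi-likelihood test. B2m was called in 6 of 6 fits with a library left out, but in only 3 of 11 other settings, and its log2 fold change was 0.33 with the share of read pairs outside genes as a covariate. In edgeR's quasi-likelihood test with robust estimation of the spread its SE was 0.35 and its adjusted p 0.758. B2m is a target of interferons, which act in many promoters through an element of GAAA, any 2 bases and GAAA, and its upstream sequence is shown because it holds such an element, printed in capitals. The sequence is the 250 bases before the RefSeq transcription start, chr2:122147437-122147686 on the plus strand of GRCm38.p6.
B2m: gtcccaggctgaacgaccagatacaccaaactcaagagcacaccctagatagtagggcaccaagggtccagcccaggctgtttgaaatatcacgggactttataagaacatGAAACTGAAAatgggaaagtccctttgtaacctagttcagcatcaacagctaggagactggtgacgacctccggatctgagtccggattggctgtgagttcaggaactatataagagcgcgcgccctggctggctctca

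A search of both strands found this motif in 978 of 32851 promoter windows of this length (2.98%). Of the 18 called genes 7 were in this table, and 1 of these, B2m itself, held the motif. A match describes the letters only. Across 25 type I interferon stimulated genes, 15 had a log2 fold change above 0 and the median was 0.58. It was -0.41 with the covariate and -0.18 without SP/CD127-/lo replicate 1. Of the 25 genes 0 were called in edgeR's quasi-likelihood test and in DESeq2, and 2 had an unadjusted p under 0.05. Ifi27l2a, an interferon-induced mitochondrial protein, was at 6533, 2372 and 2635 CPM against 1819, 1620 and 2240 CPM, but its log2 fold change turned from 1.02 to -0.14 with the share of read pairs outside genes as a covariate. Among 26 genes of the interferon gamma response and antigen processing, 15 were above 0 with a median of 0.12. Without overlap 3 were higher (11.5%) and 6 lower (23.1%), against 10.2% and 9.38% of genes with a mean of at least 10 CPM. The share higher was near that of these genes, so nothing is read from it. B2m was the only one of the 26 called. The 6, Tap1, Nlrc5, H2-Q7, Irf1, Gbp4 and Cd274, were named after their values were seen. Tap1, which moves peptides for class I molecules into the endoplasmic reticulum, was at 146, 212 and 158 CPM against 250, 554 and 308 CPM.

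Trac (chr14:54220521-54224206, plus strand) encodes the constant region of the T cell receptor alpha chain and had the largest fold change among the genes called higher. It stood at 1839, 1199 and 1567 CPM in SP/CD127-/lo Tregs and at 389, 313 and 676 CPM in SP/naive Tregs, with no overlap. The log2 fold change was 1.74 ± 0.37 (SE), with an adjusted p of 0.00607 in edgeR's quasi-likelihood test. Cd53, a tetraspanin of all leukocytes, was at 4379, 2893 and 3973 CPM against 1370, 1000 and 1798 CPM. Its log2 fold change was 1.43 ± 0.25 (SE), and its adjusted p was 0.0002 in the same test. It was called in 5 of 11 other settings and had a log2 fold change of 0.84 with the share of read pairs outside genes as a covariate, and Trac in 6 of 11, with 1.02. Trac was not called without SP/naive replicate 1, SP/naive replicate 2 or SP/CD127-/lo replicate 1, with log2 fold changes of 1.63, 1.53 and 1.59.

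The other 4 genes called higher had log2 fold changes of 0.67 to 0.995. Cd52 was at 7038, 5025 and 5496 CPM against 3394, 2849 and 3390 CPM, a log2 fold change of 0.87 ± 0.20 (SE). Tmsb4x, which sequesters monomeric actin, was at 40144, 24210 and 31022 CPM against 21814, 16508 and 21491 CPM, a log2 fold change of 0.67 ± 0.14 (SE). The groups did not overlap in either gene. mt-Co1 was at 14175, 5698 and 8688 CPM against 5563, 4565 and 4201 CPM, and mt-Cytb at 16708, 6994 and 11176 CPM against 7153, 5904 and 5031 CPM. The groups overlapped in mt-Cytb, and both mitochondrial transcripts were highest in SP/CD127-/lo replicate 1. Without this library none of the 4 was called, and their log2 fold changes were 0.59 for mt-Cytb, 0.59 for mt-Co1, 0.47 for Tmsb4x and 0.71 for Cd52, which was not called without SP/naive replicate 2 either, at 0.79. Each of the 4 was called in 3 of 11 other settings, and with the share of read pairs outside genes as a covariate their log2 fold changes were 0.42, 0.43, 0.09 and 0.40 in the same order. Of 12 mitochondrially encoded genes 2 were called, 9 had a log2 fold change above 0, and the median was 0.44, or -0.15 with that covariate. Among all 87 genes with a mean of at least 1000 CPM, 81.6% had a log2 fold change above 0 and 6 were called higher. The summed level of the 12 mitochondrial genes was 51404, 23574 and 34073 CPM in SP/CD127-/lo Tregs and 25095, 21488 and 17587 CPM in SP/naive Tregs.

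Of the 11 genes called lower, 5 had no count in any SP/CD127-/lo library, and their differences are given as lower bounds against a floor of 3 counts per library. Ly86, which encodes MD-1, the partner of the B cell receptor RP105, was at 17.1, 35.9 and 2.02 CPM in SP/naive Tregs, and its mean was at least 22.1-fold higher there, or 11.5-fold without replicate 2. Cxcr6, the receptor for CXCL16 on effector and tissue T cells, was at 32.5, 15.6 and 13.9 CPM, at least 24.96-fold higher. Serpinb1a was at 12.9, 10.5 and 4.04 CPM, at least 11.1-fold higher. H2-Ab1, a chain of an MHC class II molecule, was at 14.04, 0.677 and 4.29 CPM, at least 7.66-fold higher, or 3.004-fold without replicate 1, and replicate 2 held 2 counts of it. All 3 SP/naive libraries thus held counts of these 4 transcripts, for H2-Ab1 in replicate 2 under the floor of 3 counts. The levels were far below those of the genes called higher. Serpinb1a lost its call whichever SP/CD127-/lo library was left out, with bounds of 10.6-fold to 11.4-fold. Of 11 other settings, Ly86, Cxcr6 and H2-Ab1 were called in 6 and Serpinb1a in 5.

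Of the remaining genes called lower, Iglv1, Iglc1 and Ms4a1 rested largely on a single SP/naive library. Iglv1, an immunoglobulin lambda segment, had 210 counts in SP/naive replicate 3 and 0 in the other 5 libraries, so that its mean was at least 21.4-fold higher in SP/naive Tregs. Iglc1, the matching constant region, had 3 counts over all SP/CD127-/lo libraries and 189 over SP/naive libraries, of which 173 were in replicate 3, for a ratio of 65.3 (95% counting interval 21.99 to 319). Ms4a1, which encodes CD20, had 1 count against 40, of which 39 were in SP/naive replicate 1, for a ratio of 41.4 (95% counting interval 7.02 to 1677). Without the library named, none of these 3 was called by edgeR's quasi-likelihood test. Iglv1 then had no count left, Iglc1 had 3 counts against 16, a ratio of 8.84 (95% counting interval 2.53 to 47.4), and Ms4a1 had 1 against 1. The calls were also lost without 2 of the 3 SP/CD127-/lo libraries. These were replicates 1 and 3 for Iglv1, with bounds of 21.6-fold and 22.1-fold, and for Ms4a1, with ratios of 28.01 and 28.5, and replicates 2 and 3 for Iglc1, with ratios of 41.5 and 44.9. Bank1, a scaffold of B cell receptor signalling, was carried by all 3 SP/naive libraries, at 16.8, 11.5 and 13.6 CPM, against 1.98, 0 and 0.586 CPM in SP/CD127-/lo Tregs. It was not called without SP/CD127-/lo replicate 2 or 3, with log2 fold changes of -3.40 and -3.80. Of 11 other settings, Iglv1 was called in 4 and Bank1, Iglc1 and Ms4a1 in 3 each. Reads of lambda segments can be shared between near-identical copies, so the level of each is uncertain.

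Gm10800 and Gm10801 are predicted genes with near-identical copies, and their counts are uncertain for that reason. Gm10800 was at 206, 1036 and 523 CPM in SP/CD127-/lo Tregs and at 810, 10637 and 197 CPM in SP/naive Tregs. Gm10801 was at 24.9, 122 and 61.9 CPM against 82.0, 1098 and 17.2 CPM. In both, SP/naive replicate 2 alone stood apart and SP/naive replicate 3 was the lowest of the 6 libraries. Without SP/naive replicate 2 the log2 fold changes were 0.23 and 0.49, above 0, and neither gene was called. With the share of read pairs outside genes as a covariate they were 1.92 and 2.10, and Gm10801 was not called without SP/CD127-/lo replicate 1 or 3 either, at -2.12 and -2.45.

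Among genes not called, the 10 with the smallest p that were higher without overlap, at a mean of at least 10 CPM in a group, were mostly abundant transcripts. Ly6e, an interferon-inducible surface protein, was at 4763, 2576 and 3458 CPM against 1715, 1225 and 2438 CPM, with an adjusted p of 0.089 in edgeR's quasi-likelihood test. Cdc42, a small GTPase of the actin cytoskeleton, was at 1875, 1036 and 1294 CPM against 540, 567 and 669 CPM. S100a10, Ppia, AW112010, mt-Nd5 and Ifi27l2a had log2 fold changes of 0.66 to 1.11. Igkc, the immunoglobulin kappa constant region, was at 150, 103 and 113 CPM against 32.5, 18.3 and 76.8 CPM. Spc25, a kinetochore protein of dividing cells, was at 40.1, 83.8 and 28.4 CPM against 0, 2.37 and 0 CPM.

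The corresponding 10 genes below the naive level were, Srrm2 apart, of low abundance. Cr2, which encodes the complement receptor CD21 of B cells, was at 1.98, 1.01 and 0 CPM against 21.5, 8.46 and 2.27 CPM. Smg6, an endonuclease of nonsense-mediated decay, was at 15.8, 6.54 and 0.586 CPM against 96.6, 119 and 36.6 CPM. Kctd3 was at 0.283, 1.26 and 1.17 CPM against 19.5, 17.9 and 19.7 CPM, the tightest SP/naive group of these genes. Chka, the first enzyme of phosphatidylcholine synthesis, had means of 1.68 and 21.5 CPM. The others were C030034I22Rik, 4930550C14Rik, Fads6, Gm17096 and Gm20696, each with at most 3 counts in any SP/CD127-/lo library. The adjusted p values of the 10 in edgeR's quasi-likelihood test ran from 0.128 to 0.648.

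Genes of Treg identity centred near 0. Of 20 such genes, 0 were called by edgeR's quasi-likelihood test and by DESeq2 and 3 had an unadjusted p under 0.05, 11 had a log2 fold change above 0, and the median was 0.07, or -0.07 with the share of read pairs outside genes as a covariate. The members with the smallest p were Ikzf2, Ctla4 and Tnfrsf4. Ikzf2, which encodes the Treg transcription factor Helios, was at 4073, 8041 and 10457 CPM against 5882, 3819 and 4019 CPM, with overlap. Ctla4, the inhibitory receptor that CTLA4-Fc mimics, was at 1115, 846 and 937 CPM against 499, 348 and 599 CPM, without overlap, for a log2 fold change of 1.003 ± 0.48 (SE) that was not called.

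Genes of effector Tregs had a median above 0, and those of resting lymphoid cells one slightly below. In neither list was a gene called by edgeR's quasi-likelihood test or DESeq2, and 2 and 3 had an unadjusted p under 0.05. Of 26 effector and tissue Treg genes 16 were above 0, with a median of 0.53. Higher without overlap were 8 members (30.8%), against 10.2% of genes with a mean of at least 10 CPM and 18.7% of those between 100 and 1000 CPM. Lower without overlap were 2, Gata3 and Lag3 (7.69%, against 9.38% of genes with a mean of at least 10 CPM), and nothing is read from that share. With the covariate the median was 0.297 against 0.306 for all genes. Icos, a costimulatory receptor of activated T cells, was at 1078, 1016 and 852 CPM against 557, 371 and 560 CPM. Maf, a transcription factor of effector Tregs, was at 697, 1072 and 930 CPM against 553, 585 and 444 CPM. Gata3, a transcription factor of type 2 and tissue Tregs, was at 132, 84.5 and 111 CPM against 147, 143 and 136 CPM. Of 17 resting and lymphoid homing genes 11 were below 0, with a median of -0.12, or -0.51 with the covariate against 0.306 for all genes. Of the 17 genes 2 were lower without overlap (11.8%), 1 of them Il7r. This share was near the 9.38% of genes with a mean of at least 10 CPM that were lower without overlap, so nothing is read from it. The other was Foxp1, which maintains quiescence, at 214, 324 and 323 CPM against 578, 635 and 443 CPM. Bach2, a repressor of effector genes, was at 52.0, 169 and 60.7 CPM against 324, 237 and 127 CPM, with overlap.

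The list with the largest share of genes higher without overlap was that of 20 S100, galectin and cytoskeletal activation genes. Of these 19 had a log2 fold change above 0, the median was 1.07, and 14 were higher in all SP/CD127-/lo libraries than in any SP/naive library (70%), against 10.2% of genes with a mean of at least 10 CPM. By mean level over the 6 libraries, 9 of 12 members between 100 and 1000 CPM and 2 of 4 above were among them, beside 18.7% and 40.2% of all genes in these classes. With the covariate the median was 0.55 against 0.31 for all genes. Tmsb4x was the only member called, and 10 had an unadjusted p under 0.05. Lgals1, which encodes the suppressive lectin galectin-1, was at 865, 787 and 896 CPM against 388, 273 and 394 CPM. S100a10, a partner of annexin A2, was at 2790, 1829 and 2148 CPM against 1247, 791 and 1199 CPM. Pfn1, which encodes the actin-binding protein profilin, was at 2653, 799 and 844 CPM against 351, 172 and 1101 CPM, with overlap.

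Most genes of energy supply and protein folding also had log2 fold changes above 0. Their shares without overlap stand beside 4.02% of all genes, 18.7% of genes between 100 and 1000 CPM and 40.2% of those above. Their counts above 0 stand beside 60.3% and 81.6% of genes in these 2 classes. Of 82 nuclear-encoded genes of oxidative phosphorylation 75 were above 0, with a median of 0.60 and 33 higher without overlap (40.2%). Ndufa4, a subunit of cytochrome c oxidase, was at 1450, 1083 and 1488 CPM against 747, 619 and 824 CPM. Of 15 glycolysis genes 10 were above 0, with a median of 0.61. Of 14 heat shock and folding genes 12 were above 0, with a median of 0.76 and 8 higher without overlap (57.1%), and Hspa8, the constitutive HSP70 chaperone, had means of 591 ± 142 and 281 ± 20.5 CPM (SD, n = 3 each). Of 84 cytosolic ribosomal protein genes 74 were above 0, but with a median of 0.19 and 7 without overlap (8.33%). No member of these 4 lists was called by edgeR's quasi-likelihood test or DESeq2. At an unadjusted p under 0.05 there were 11 genes of oxidative phosphorylation, 0 of glycolysis, 3 of heat shock and folding and 0 ribosomal protein genes. With the share of read pairs outside genes as a covariate the medians were -0.07 for oxidative phosphorylation, -0.05 for glycolysis, 0.49 for heat shock and folding and -0.24 for ribosomal proteins, against 0.31 for all genes.

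Cell cycle genes had the same direction of median. Their summed level over 28 genes was 1936, 1928 and 1929 CPM in SP/CD127-/lo Tregs and 1423, 969 and 1012 CPM in SP/naive Tregs, so that the groups did not overlap. The median log2 fold change was 0.69, with 23 of 28 above 0, 7 higher without overlap (25%, against 10.2% of genes with a mean of at least 10 CPM), 4 at an unadjusted p under 0.05 and 0 called by edgeR's quasi-likelihood test or DESeq2. With the covariate the median was 0.29, under that of all genes. Ccnb2, a cyclin of mitosis, was at 63.8, 73.2 and 32.2 CPM against 8.26, 0 and 1.26 CPM. Birc5, which encodes survivin, was at 31.9, 90.1 and 74.5 CPM against 10.2, 12.9 and 7.83 CPM. The proliferation marker Mki67, named after its values were seen, overlapped, with 27.1, 33.2 and 117 CPM against 63.0, 28.4 and 25 CPM.

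**Figure D3:**
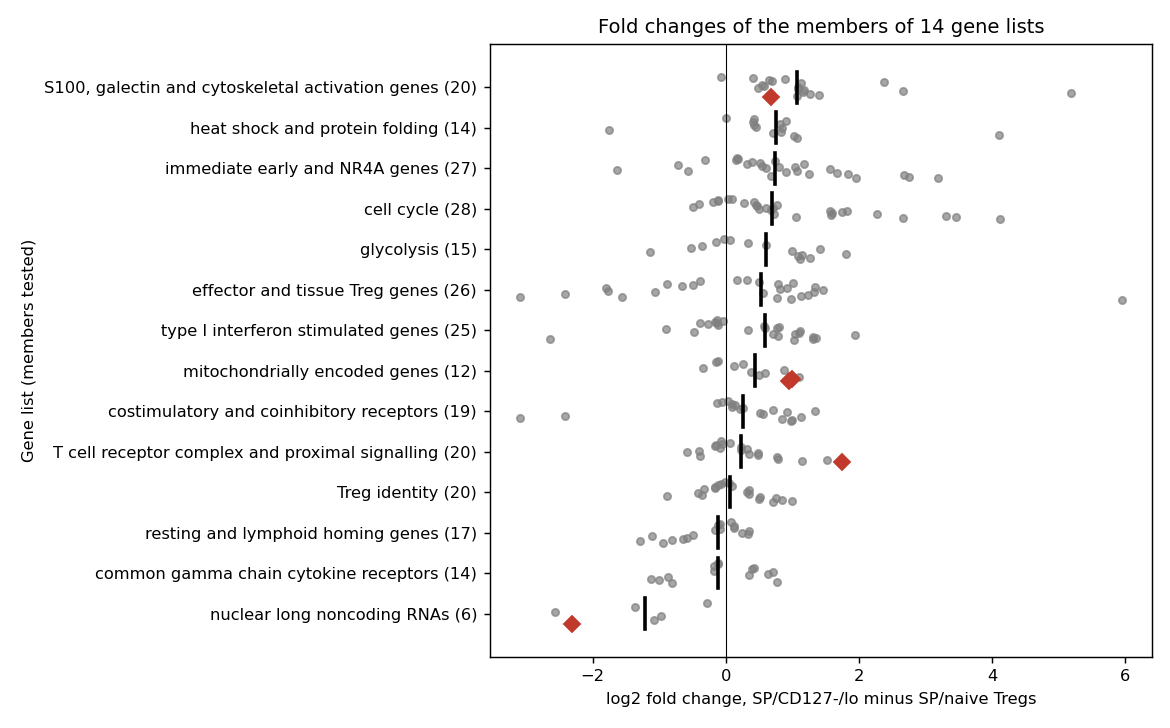
Log2 fold change, SP/CD127-/lo minus SP/naive Tregs, of each member of 14 of the 31 gene lists described, with the number of members tested in brackets, red diamonds for called genes, grey points for the others and black bars for the median of a list. Medians run from 1.07 for the S100, galectin and cytoskeletal activation genes to -1.22 for the nuclear long noncoding RNAs, while Treg identity genes centre at 0.07.

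Genes of the T cell receptor were mixed. Of 20 genes of the T cell receptor complex and its proximal signalling 12 were above 0, with a median of 0.23, or -0.02 with the covariate, and Trac was the only member called. Cd3g, a signalling chain of the receptor, was at 3973, 2299 and 2199 CPM against 969, 666 and 2199 CPM, with overlap. T cell receptor variable segments were each at low counts, with 58 of 78 alpha segments and 22 of 27 beta segments above 0. By edgeR's quasi-likelihood test 0 of them were called, with 7 alpha segments and 1 beta segment at an unadjusted p under 0.05, while DESeq2 called 1 alpha segment, Trav3-4, and limma-trend 1 other, Trav6d-3. Between 40 and 63 alpha segments were detected in an SP/CD127-/lo library and between 31 and 51 in an SP/naive library, from 1178 to 1952 alpha counts in the former and 393 to 1154 in the latter. The number detected and the share of a segment move with the number of counts, and neither was compared at equal counts. With segments at their bound the alpha median was 0.93 in place of 1.23, and the beta median was 1.32. With the covariate they were 0.18 and 0.25, both under the 0.31 of all genes. The most abundant alpha segment took 6.32% to 9.68% of the alpha counts in SP/CD127-/lo libraries and 10.7% to 13.6% in SP/naive libraries. Reads of such segments can be shared among near-identical copies.

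Immediate early and NR4A genes, which T cell receptor signals induce, had 23 of 27 members above 0 and a median of 0.74. With the covariate this median was 0.91, against 0.31 for all genes. Of the 27 members 0 were called by edgeR's quasi-likelihood test or DESeq2, and 0 had an unadjusted p under 0.05. Nr4a3 was at 110, 53.3 and 40.7 CPM against 17.3, 9.13 and 26.0 CPM. Costimulatory and coinhibitory receptors had 15 of 19 above 0 and a median of 0.25, or -0.23 with the covariate. Suppressive and secreted molecules had 7 of 13 above 0 and a median of 0.67, or 0.21 with the covariate. In these lists 0 genes were called by edgeR's quasi-likelihood test or DESeq2, and 3 and 1 had an unadjusted p under 0.05. With genes that had no count in a group set at their bound, the median of the suppressive molecules was 0.00 and that of the immediate early genes 0.68. Il10 was at 13.6, 85.0 and 17.3 CPM against 14.9, 4.06 and 1.01 CPM, with overlap. Chemokine receptors and integrins had 14 of 24 above 0, a median of 0.09, or -0.02 with the covariate, and Cxcr6 as the only call. Common gamma chain cytokine receptors and their signalling genes had 6 of 14 above 0 and a median of -0.12, or 0.11 with the covariate. Without overlap 1 was higher (7.14%) and 4 lower (28.6%), against 10.2% and 9.38% of genes with a mean of at least 10 CPM. Of the 14 genes 0 were called by edgeR's quasi-likelihood test or DESeq2, and 2 had an unadjusted p under 0.05. The 4 lower were Il7r, which the sort used, Il4ra, Jak3 and Stat5a, named after their values were seen. Il2rg, the shared gamma chain itself and the 1 higher, was at 696, 559 and 595 CPM against 382, 255 and 446 CPM.

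The direction of a difference moved with the abundance of a gene. Among the 87 genes with a mean of at least 1000 CPM in the 6 libraries, 81.6% had a log2 fold change above 0, the median was 0.45, and 40.2% were higher without overlap against 2.30% lower. Between 100 and 1000 CPM (2099 genes) the median was 0.16, and between 10 and 100 CPM (6088 genes) it was -0.06. Between 1 and 10 CPM (3807 genes) it was -0.29, with 7.41% of genes lower without overlap and 3.78% higher. Of the 7 genes called higher 6 lay in the most abundant class, and 7 of the 11 called lower lay between 1 and 10 CPM. The part of abundance in the medians of the gene lists was not tested.

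**Figure D4:**
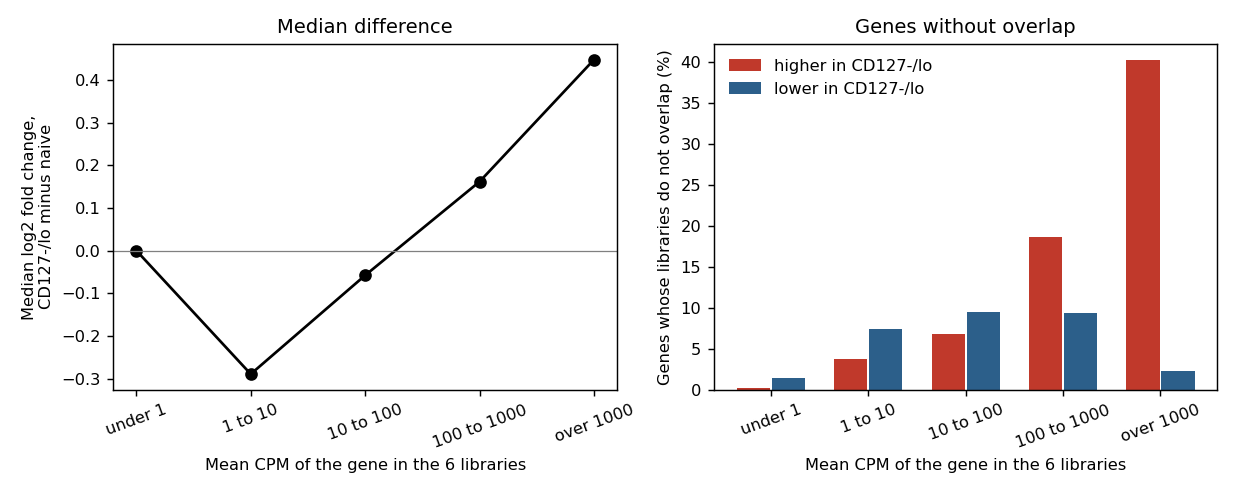
Median log2 fold change (left) and percent of genes whose 3 libraries do not overlap between the groups (right, red higher and blue lower in SP/CD127-/lo Tregs) for 5 classes of mean CPM. The median is 0.00 under 1 CPM, where most genes have few or no counts, and goes from -0.29 between 1 and 10 CPM to 0.45 at 1000 CPM and above.

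Markers of other cells were present in both groups and are set beside splenic CD45+CD4- cells. The 19 B cell markers other than immunoglobulin genes summed to 79.3 to 120 CPM in SP/CD127-/lo Tregs and 62.6 to 131 CPM in SP/naive Tregs, against 6950 to 14289 CPM in CD45+CD4- cells. In SP/CD127-/lo Tregs 7 of these 19 had no count in any library, and in SP/naive Tregs 3. Pax5, a transcription factor that sets B cell identity, had at most 1 count in any of the 6 libraries. Of all 22 B cell markers 2 were called lower and 0 higher, with a median of -0.63, or 0.00 with the genes without counts in a group set at their bound and 0.24 with the covariate. Ighm, which was at 1430 to 1499 CPM in SP/CD127-/lo Tregs and at 778 to 1255 CPM in SP/naive Tregs, made up most of their summed level. Over 256 immunoglobulin genes, 29 were above and 61 below 0, Iglv1 and Iglc1 were called, and the summed level was 1618 to 1713 CPM in SP/CD127-/lo Tregs and 931 to 1646 CPM in SP/naive Tregs. The part of B cells in the calls of Ly86, H2-Ab1, Ms4a1, Bank1, Iglv1 and Iglc1 was not tested. Serpinb1a was also high in CD45+CD4- cells, at 120 to 274 CPM, against at most 4.10 CPM in SP/naive and SP/tolerant CD4+ cells. The part of CD45+CD4- cells in its call was not tested either.

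MHC class II genes did not move together. H2-Aa, the partner chain of H2-Ab1, was at 1.13, 7.30 and 0 CPM against 38.8, 0.677 and 16.4 CPM, with overlap. Cd74, the invariant chain, lay the other way, at 332, 104 and 153 CPM against 42.4, 49.1 and 121 CPM, also with overlap. Of 11 genes of class II presentation 7 were above 0, with a median of 0.36, or -0.51 with the covariate, and H2-Ab1 was the only call.

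The other marker lists held 0 called genes in edgeR's quasi-likelihood test, with 1 plasma cell, 2 macrophage, 2 dendritic cell, 0 neutrophil, 3 NK and CD8 T cell, 5 erythroid and 1 stromal marker at an unadjusted p under 0.05. DESeq2 called 5 of them, Zbtb46, Siglech, Xcl1, Gzmk and Hbb-bt. Macrophage and monocyte markers summed to 174 to 501 CPM in SP/CD127-/lo Tregs and 131 to 442 CPM in SP/naive Tregs, against 850 to 2898 CPM in CD45+CD4- cells. Their median log2 fold change was 0.13, or 1.28 with the covariate against 0.31 for all genes. Neutrophil markers summed to at most 1.35 CPM in any of the 6 libraries, against 46.7 to 2801 CPM, and plasma cell markers to 90.0 to 145 and 81.3 to 135 CPM, against 186 to 3042 CPM. NK cell and CD8 T cell markers summed to 186 to 400 CPM against 99.7 to 187 CPM, and to 1866 to 4814 CPM in CD45+CD4- cells, with Cd8a at most at 1 count in a library. Dendritic cell markers summed to 72.5 to 129 CPM against 53.7 to 121 CPM, and stromal and epithelial markers to 84.3 to 99.7 CPM against 106 to 107 CPM, beside 327 to 623 and 121 to 197 CPM in CD45+CD4- cells. Erythroid and platelet markers reached 573 CPM in SP/CD127-/lo replicate 3, through haemoglobin genes such as Hbb-bs at 303 CPM, and at most 29.7 CPM in the other 5 libraries, while CD45+CD4- cells had 15.9 to 138 CPM. Of these summed levels only that of erythroid markers in SP/CD127-/lo replicate 3 lay above the range of CD45+CD4- cells, and its part in the results was not tested. In bulk samples, fewer cells of a type and less RNA per cell cannot be told apart.

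The DLN also gave CD127-/lo and naive Tregs, but not the same contrast. These libraries were part of the fit that set the spread for the splenic comparison, in which only 3 genes were called with spleen and graft libraries alone. They were sequenced on another instrument, held only 844039 to 1935323 read pairs on genes, and the naive lymph nodes were taken from female mice. Xist, the RNA that silences an X chromosome in female cells, was at 405, 459 and 1.24 CPM in DLN/naive Tregs and at most at 5.41 CPM in all other libraries of the study. Kdm5d, a gene of the Y chromosome, was at 0, 0 and 148 CPM in DLN/naive Tregs, at 94.3, 12.9 and 31.9 CPM in DLN/CD127-/lo Tregs and at 53.7 to 120 CPM in the 6 splenic libraries. DLN/naive replicates 1 and 2 thus had Xist and lacked Kdm5d, while replicate 3 had the pattern of the libraries from male mice. Sex, instrument and the difference between spleen and DLN cannot be told apart in what follows. DLN/CD127-/lo and DLN/naive Tregs differed in 90 genes (0.355%) by edgeR's quasi-likelihood test, of which 4 were also called in the spleen, each in the opposite direction. Gm10800 and Gm10801 had DLN log2 fold changes of 4.68 and 4.61, against -2.72 and -2.52 in the spleen. Cxcr6 was at least 14.7-fold higher in DLN/CD127-/lo Tregs, or 5.88-fold without replicate 3, where the spleen had at least 24.96-fold in favour of SP/naive Tregs. Ms4a1 had 94 counts in DLN/CD127-/lo Tregs and 3 in DLN/naive Tregs, a ratio of 34.3 (95% counting interval 11.4 to 169), which became 23.3 to 69.9 with a library left out, the highest without DLN/naive replicate 2 and 61.2 without DLN/CD127-/lo replicate 1. Of the 18 splenic genes 7 had the same sign in the DLN. Malat1 was not called there, with a log2 fold change of -0.55 ± 0.15 (SE) and an adjusted p of 0.0557 in edgeR's quasi-likelihood test. B2m, Trac and mt-Co1 had DLN log2 fold changes of 0.14, 0.06 and 0.07, and those of Cd53, Tmsb4x, mt-Cytb and Cd52 were -0.03, -0.19, -0.19 and -0.48.

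A test of the difference itself, as an interaction in the same fit, called 35 genes (0.138%), 12 with the spleen effect above that of the DLN and 23 with it below, and 2571 genes had an unadjusted p under 0.05. In 32 of the 35 the effects had opposite signs, and 13 of the 35 were among the 18 splenic genes. Both counts follow in part from the test, which reuses the splenic libraries and picks effects that lie apart. Malat1 differed by -1.76 ± 0.21 (SE) on the log2 scale, with an adjusted p of 4.31e-11 in edgeR's quasi-likelihood test, but it was not called in edgeR's likelihood ratio test (adjusted p = 0.319), in DESeq2 (0.0935), in limma-trend (0.253), with the stricter filter on low counts (0.222) or with robust estimation of the spread (0.386). Cxcr6 had no count in the 3 DLN/naive libraries and stood at 22.9, 0.996 and 65.4 CPM in DLN/CD127-/lo Tregs, the reverse of the spleen. With robust estimation of the spread 3 genes were called in this test, and leaving out a DLN library gave 62, 67 or 60 genes without DLN/naive replicate 1, 2 or 3 and 90, 18 or 124 without DLN/CD127-/lo replicate 1, 2 or 3.

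**Figure D5:**
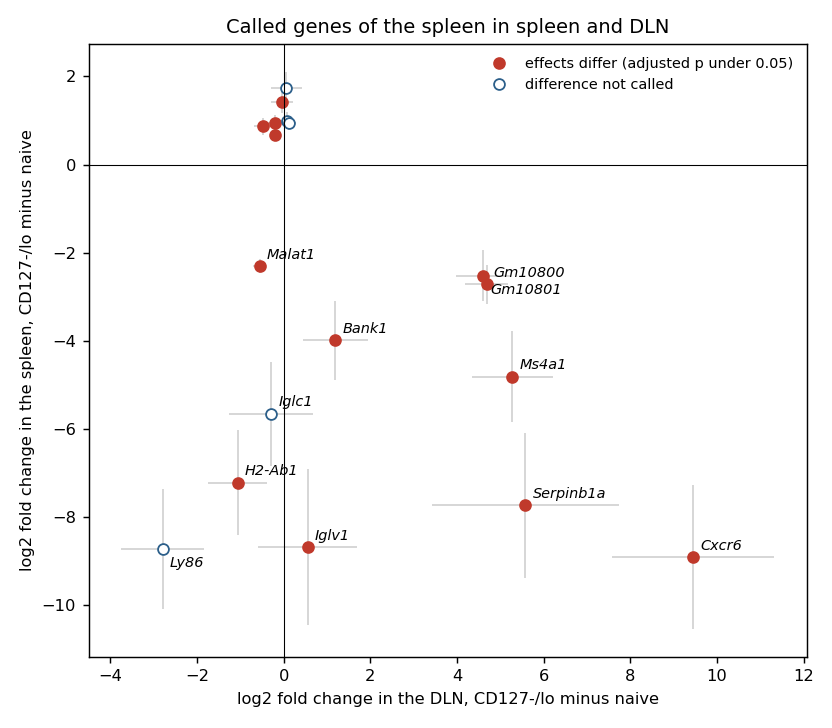
Log2 fold change, CD127-/lo minus naive Tregs, of the 18 called genes in the DLN (horizontal) and in the spleen (vertical), with the SE of the fit as grey lines and points for genes without a count in a group at fitted values that depend on the prior count, and filled red points where the effects differed at an adjusted p under 0.05 (13 genes). The 7 genes called higher in the spleen lie near 0 in the DLN, between -0.48 and 0.14, and Gm10800, Gm10801, Ms4a1, Serpinb1a, Cxcr6, Bank1 and Iglv1 lie above 0 in the DLN and below 0 in the spleen.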

How the data were processed

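Sorted cells were lysed directly for SMART-Seq v4 cDNA and Nextera XT libraries, which do not mark strand, and sequenced as read pairs on a NextSeq 500 (spleen and graft) or MiSeq (DLN). The authors trimmed reads with Trim Galore after FastQC, aligned them with STAR to mm10 with the EGFP sequence added, and deposited counts per gene, raw and unstranded. Their methods name HTSeq for counting, while the files have the gene count layout of STAR; a batch correction that they applied later is not in the deposited counts. Rows without a gene held the other read pairs.

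Column 2 was used after its first 4 rows. Genes reaching 1 CPM in any library were scaled by TMM and fitted in edgeR 4.0.16 (R 4.3.3) with a mean for each of the 11 groups over all 33 libraries; the quasi-likelihood test was two-sided with Benjamini-Hochberg adjustment, and called means an adjusted p under 0.05. CPM are edgeR values after TMM. The likelihood ratio test of edgeR, which the authors' methods name, was an alternative. Other alternatives used DESeq2 1.42.0 and limma 3.58.1. Figures and tables used Python 3.11.15. The members and gene lists were chosen with earlier results of these data known. Named were the called genes, the sort genes, the members of each list with the smallest p, the 10 uncalled genes a direction with the smallest p that did not overlap at 10 CPM or more, and the 5 a direction with the smallest p in the interaction, of which a few are not reported here; others named are markers or are said to be chosen after their values were seen. Shares of read pairs were compared by an exact permutation test. Exact binomial intervals at 95% and floors of 3 counts cover counting error only. On simulated counts for this comparison over 23372 genes, with 200 changed, 4 of 100 genes with a 4-fold and 51 of 100 with a 16-fold change were called, none in the wrong direction, and 1 unchanged gene was called. These counts were drawn gene by gene from the fitted spread, without a share outside genes that differed between the groups. The rates therefore need not hold for the real libraries.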

Additional observations from a re-analysis of the deposited data

Results flagged for a closer look

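The difference between CD127-/lo and naive Tregs itself differed between spleen and DLN, by the interaction test of edgeR, in 35 genes. The values that follow are the spleen log2 fold change minus that of the DLN for the 5 genes a direction with the smallest p. Above the DLN were Spc25 at 12.50, Cul4b at 9.62, Igkc at 2.63, Cd52 at 1.35 and mt-Cytb at 1.14. Spc25, a kinetochore gene, was at 28.4 to 83.8 CPM in SP/CD127-/lo Tregs and at 0, 1.99 and 0 CPM in DLN/CD127-/lo Tregs, against 0.71, 59.6 and 105 CPM in DLN/naive Tregs. Cul4b, a scaffold of ubiquitin ligases, was at 52.8, 93.9 and 68.6 CPM in SP/CD127-/lo Tregs and at 0, 0.996 and 0 CPM in DLN/CD127-/lo Tregs, against 102, 82.7 and 0.62 CPM in DLN/naive Tregs.

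Below the DLN were Cxcr6 at -18.35, Cr2 at -13.48, Gm10800 at -7.40, Gm10801 at -7.13 and Malat1 at -1.76. Cxcr6 and Cr2 had no count in any DLN/naive library, and Cxcr6 none in any SP/CD127-/lo library, so these fitted values depend on the prior count. Gm10800 was at 8363, 39557 and 522 CPM in DLN/CD127-/lo Tregs, so that it varied widely within that group as it did in SP/naive Tregs. The spleen and DLN libraries were sequenced on different instruments, and 2 of the 3 DLN/naive libraries had the transcripts of female mice while the splenic libraries came from male mice. Instrument, sex and the difference between spleen and DLN cannot be told apart.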

How the results depend on the processing

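The count of 18 called genes moved to 4 in the likelihood ratio test of edgeR, 38 in DESeq2 (8 shared), 36 with no filter on low counts, 1 with a stricter filter (10 counts in 3 libraries), 9 with only the libraries compared (4 shared) and 3 with only spleen and graft libraries. With alternatives chosen after seeing the data it was 2 with the share of read pairs outside genes as a covariate, 0 in the robust quasi-likelihood test and 5 in limma-trend (1 shared). Leaving out each library gave 12 to 27. The 35 genes of the interaction became 301 in DESeq2, 56 with no filter, 3 with the stricter filter, 18 with only the libraries compared, 3 in the robust test, 6 in limma-trend and 18 to 124 with a library left out. The cause was not tested.

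With the replicate number as a block, 35 genes were called (18 shared), and 59 in the interaction (35 shared). The number was not shown to pair samples, since the correlations of deviations between same-numbered libraries were 0.00, 0.13 and -0.07.

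Directions reversed for Gm10800 (1.92 with the covariate, and -3.41 to 0.23 with a library left out, the latter without SP/naive replicate 2), Gm10801 (2.10, and -3.20 to 0.49 likewise), Ifi27l2a (-0.14) and EGFP (-0.52, both with the covariate), and Iglv1 ranged from -9.27 to 0.00 with a library left out, the latter without SP/naive replicate 3, as fitted values that depend on the prior count. The covariate moved the median of all genes by 0.31. Malat1 was called in 9 of 11 settings, the likelihood ratio and robust tests being the exceptions, and in 6 of 6 fits with a library left out. Of 526 list medians 27 changed sign, 13 of them with the covariate, where those of oxidative phosphorylation, glycolysis and ribosomal proteins were -0.07, -0.05 and -0.24. The other 14 were Treg identity (-0.08), type I interferon genes (-0.18), interferon gamma genes (-0.04), ribosomal proteins (-0.05), common gamma chain receptors (0.03 and 0.07), plasma cell markers (-0.46 and -0.00) and macrophage markers (-0.35 to -0.00) with a library left out, B cell markers (0.25) with only the libraries compared, and class II genes (-0.14) and macrophage markers (-0.11) in limma-trend. Depth limits low genes most, where 3 counts are 0.755 to 1.01 CPM.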
